A study of Homo sapiens with 12 samples.

Results

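The replication-dependent histone genes of chromosome 6 form the major histone gene cluster of the human genome. They were taken here as every gene between 24.4 and 28.4 Mb of GRCh38 with a symbol of the H1-, H2AC, H2BC, H3C or H4C series. Of 67 genes so named, 12 pseudogenes were left out, and 49 of the 55 that remained had at least 10 counts in at least 3 libraries. These 49, out of 57500 genes listed, were 5 H1, 10 H2A, 14 H2B, 9 H3 and 11 H4 genes, lying between 26017085 and 27893843, and all 49 passed the filter for testing. The libraries were made from OE33, an esophageal adenocarcinoma cell line, in 4 groups of 3. In rABS_shAPE1 (shAPE1 below), cells that had survived bile salts stably carried a short hairpin RNA against APE1, the base excision repair endonuclease encoded by APEX1. In rABS_shCtrl (shCtrl), the same survivors carried a non-targeting hairpin. The rABS cells were those survivors with no hairpin, after bile salts at 200 µM and pH 5.5 for 20 minutes a day over 15 days, and Parental cells were untreated. A single APE1 hairpin is named, no mock-treated group was among the samples, and replicates are described as independent biological replicates of 1 cell line. The labels do not say whether the 3 libraries of a hairpin group came from separate transductions. The p-values and standard errors below therefore measure the spread between libraries, which may not include that between transductions.

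Replication-dependent histone genes supply the core histones and linker H1 that package newly made DNA. They are transcribed in S phase, when the coactivator NPAT gathers at the cluster. Their messages normally carry no introns and no poly(A) tail: a conserved stem-loop near the 3′ end is bound by SLBP, and the U7 small nuclear ribonucleoprotein directs cleavage just after it. Some of these genes also give polyadenylated messages, in particular in cells that have left the cycle. The RNA here was selected with oligo(dT), so the libraries hold such polyadenylated histone RNA and whatever tail-less RNA was carried through the selection, which cannot be told apart in these counts.

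The start regions and 3′ ends of the genes on which the results turn are shown first. The 150 bases before the RefSeq start (GRCh38.p14) are given 5′ to 3′ on the strand of the gene, with capitals marking TATAAA (the TATA box), CCAAT (the CCAAT box) or ATTTGCAT (the octamer) on either strand. H1-1 (chr6:26017788-26017937, minus strand), H2BC3 (chr6:26043714-26043863, minus strand) and H2BC14 (chr6:27814872-27815021, plus strand) are among the largest rises described below, and H4C11 (chr6:27823942-27824091, plus strand) and H4C12 (chr6:27831561-27831710, minus strand) are the only members that fell in rABS against Parental.
H1-1: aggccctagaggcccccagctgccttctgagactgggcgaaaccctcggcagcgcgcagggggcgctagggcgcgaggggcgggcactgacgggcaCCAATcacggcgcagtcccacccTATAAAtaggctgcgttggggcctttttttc
H2BC3: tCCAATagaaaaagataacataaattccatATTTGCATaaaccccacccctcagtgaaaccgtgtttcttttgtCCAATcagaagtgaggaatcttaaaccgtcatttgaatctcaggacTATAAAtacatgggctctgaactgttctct
H2BC14: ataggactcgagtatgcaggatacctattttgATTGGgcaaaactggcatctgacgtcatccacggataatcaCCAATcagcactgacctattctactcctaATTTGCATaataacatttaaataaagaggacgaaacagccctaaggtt
H4C11: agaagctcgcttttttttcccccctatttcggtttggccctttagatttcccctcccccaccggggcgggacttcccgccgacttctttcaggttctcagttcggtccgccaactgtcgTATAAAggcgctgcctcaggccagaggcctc
H4C12: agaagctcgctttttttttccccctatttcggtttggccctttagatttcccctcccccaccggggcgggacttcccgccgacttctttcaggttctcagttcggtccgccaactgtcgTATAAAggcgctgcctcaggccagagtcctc
The windows of H4C11 and H4C12 were identical at 148 of 150 bases. A RefSeq promoter was given for 44 of the 49 members. Among these windows, the TATA box was present in 24 (54.5%), the CCAAT box in 38 (86.4%) and the octamer in 15 (34.1%). Of all 27305 RefSeq promoters, windows of the same length held them in 2265, 7587 and 333. The octamer, a known element of H2B promoters, was found in 11 of 14 H2B and 4 of 9 H2A windows and in no H1, H3 or H4 window, and CCAAT was found in 3 of 9 H4 windows and in every window of the other 4 classes. Windows of H2A and H2B genes that start close together on opposite strands can overlap, so a single match may count for both. H2AC6, H2AC7 and H2AC17 held the octamer, as did H2BC4, H2BC7 and H2BC17, which face them. A match is only a match of letters, and the absence of one says nothing about a factor.

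The 3′ stem-loop was sought in the GENCODE 29 transcripts as 6 stem bases, 4 loop bases and the reverse complement of the stem. Only the stem arms GGCCCT and GGCTCT and loops that begin with TT were sought, so any other form would have been missed. A match was found in 18 members. In the examples below, chosen to show each stem and loop found, capitals mark the stem.
H2AC8: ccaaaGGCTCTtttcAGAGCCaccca
H2BC7: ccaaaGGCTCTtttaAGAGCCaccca
H4C8: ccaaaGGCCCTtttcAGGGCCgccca
H4C9: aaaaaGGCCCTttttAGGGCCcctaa
H4C11: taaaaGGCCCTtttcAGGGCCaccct
All 5 H4 matches had the arm GGCCCT, and the matches in 3 H2A, 8 H2B and 2 H3 genes had GGCTCT. For 26 of the other members the annotated transcript ends at the stop codon, so the search could not reach the loop. The remaining 5 (H1-4, H4C3, H2BC11, H2AC11 and H3C6) have 51 to 1908 bases annotated past the stop codon and gave no match.

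The 12 libraries held between 15736087 and 23010377 counts each, and the filter on low counts left 15805 genes. APEX1 was at 4.42, 4.50 and 5.88 CPM, counts relative to the TMM-scaled library size, in shAPE1, against 62.0, 56.5 and 60.9 CPM in shCtrl. The shAPE1 mean was thus 8.2% of the shCtrl mean, with no overlap between the groups (exact permutation test, two-sided, p = 0.1, the smallest that 3 against 3 allows). The 5 epithelial markers (EPCAM, CDH1 and keratins) summed to 9030 CPM or more in every library. Fibroblast markers summed to 7.13 to 8.21 CPM in shAPE1, 9.06 to 9.46 CPM in shCtrl, 3.43 to 4.19 CPM in rABS and 22.5 to 29.4 CPM in Parental. COL1A1 alone made up nearly all of that sum, with COL1A2 and DCN at 0 in most libraries and LUM at 0 in all. Leukocyte and endothelial markers summed to under 3 CPM in every library.

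The 49 histone genes together were highest in rABS. They held 0.573 to 0.678% of all counts in shAPE1, 0.767 to 0.799% in shCtrl, 1.56 to 1.82% in rABS and 0.712 to 0.871% in Parental. The rABS libraries lay above all others, the shAPE1 libraries lay below all others, and shCtrl and Parental overlapped. As a measure of tail-less RNA in the libraries, 32 other RNAs without poly(A) tails, such as signal recognition particle, spliceosomal and vault RNAs, were counted. They held 0.468, 0.871 and 0.598% of counts in shAPE1 libraries 1 to 3, 0.576, 0.583 and 0.637% in shCtrl, 0.654, 0.989 and 0.663% in rABS, and 0.782, 0.506 and 0.810% in Parental. These shares overlapped between groups, except that all 3 rABS libraries lay above all 3 shCtrl libraries. Within groups, library 2 of shAPE1 and of rABS was the highest of its group on both measures, and library 2 of Parental was the lowest on both. RNA of the signal recognition particle made up most of that sum, and 7 of the 32 genes were at 0 in every library. In bulk RNA a change in the share of cells in S phase and a change in histone RNA per cell cannot be told apart.

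**Figure D1:**
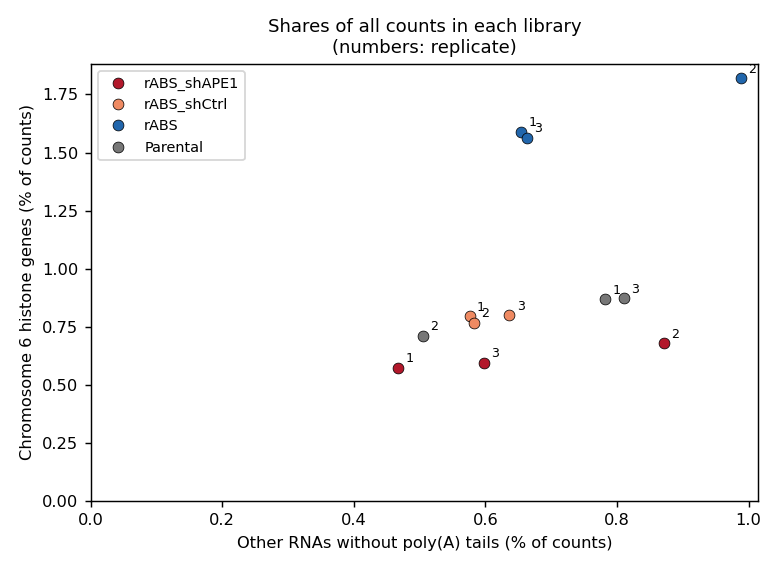
Share of all counts in the 49 histone genes (vertical axis, %) against the share in 32 other RNAs without poly(A) tails (horizontal axis, %), each point 1 library labelled with its replicate number. The rABS libraries sit at 1.56 to 1.82% on the vertical axis, above the 9 other libraries, while on the horizontal axis the groups overlap except that rABS, at 0.654 to 0.989%, lies above shCtrl, at 0.576 to 0.637%.

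Compared with Parental, rABS cells had higher levels of nearly the whole cluster. Of the 49 genes, 46 rose, 2 fell (H4C11 and H4C12) and 1, H2AC6, was not called, at an adjusted p under 0.05 in the edgeR quasi-likelihood test. Over all tested genes 29.9% were called higher and 29.9% lower. The median log2 fold change was 0.94 (1.91-fold) for the 49 genes and -0.007 for all genes, and 22 of the 49 rose at least 2-fold, against 10.1% of all genes. The 3 libraries of each group did not overlap for 46 genes that were higher and 2 that were lower, where 31.5% and 31.6% of all genes separated in this way. Without library 2 of rABS and Parental (and of shAPE1), left out after the data were seen because they stood at an end of their groups in the plot of library shares, 41 rose and 2 fell. The 15 days of exposure and of culture coincide, so their contributions cannot be told apart.

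**Figure D2:**
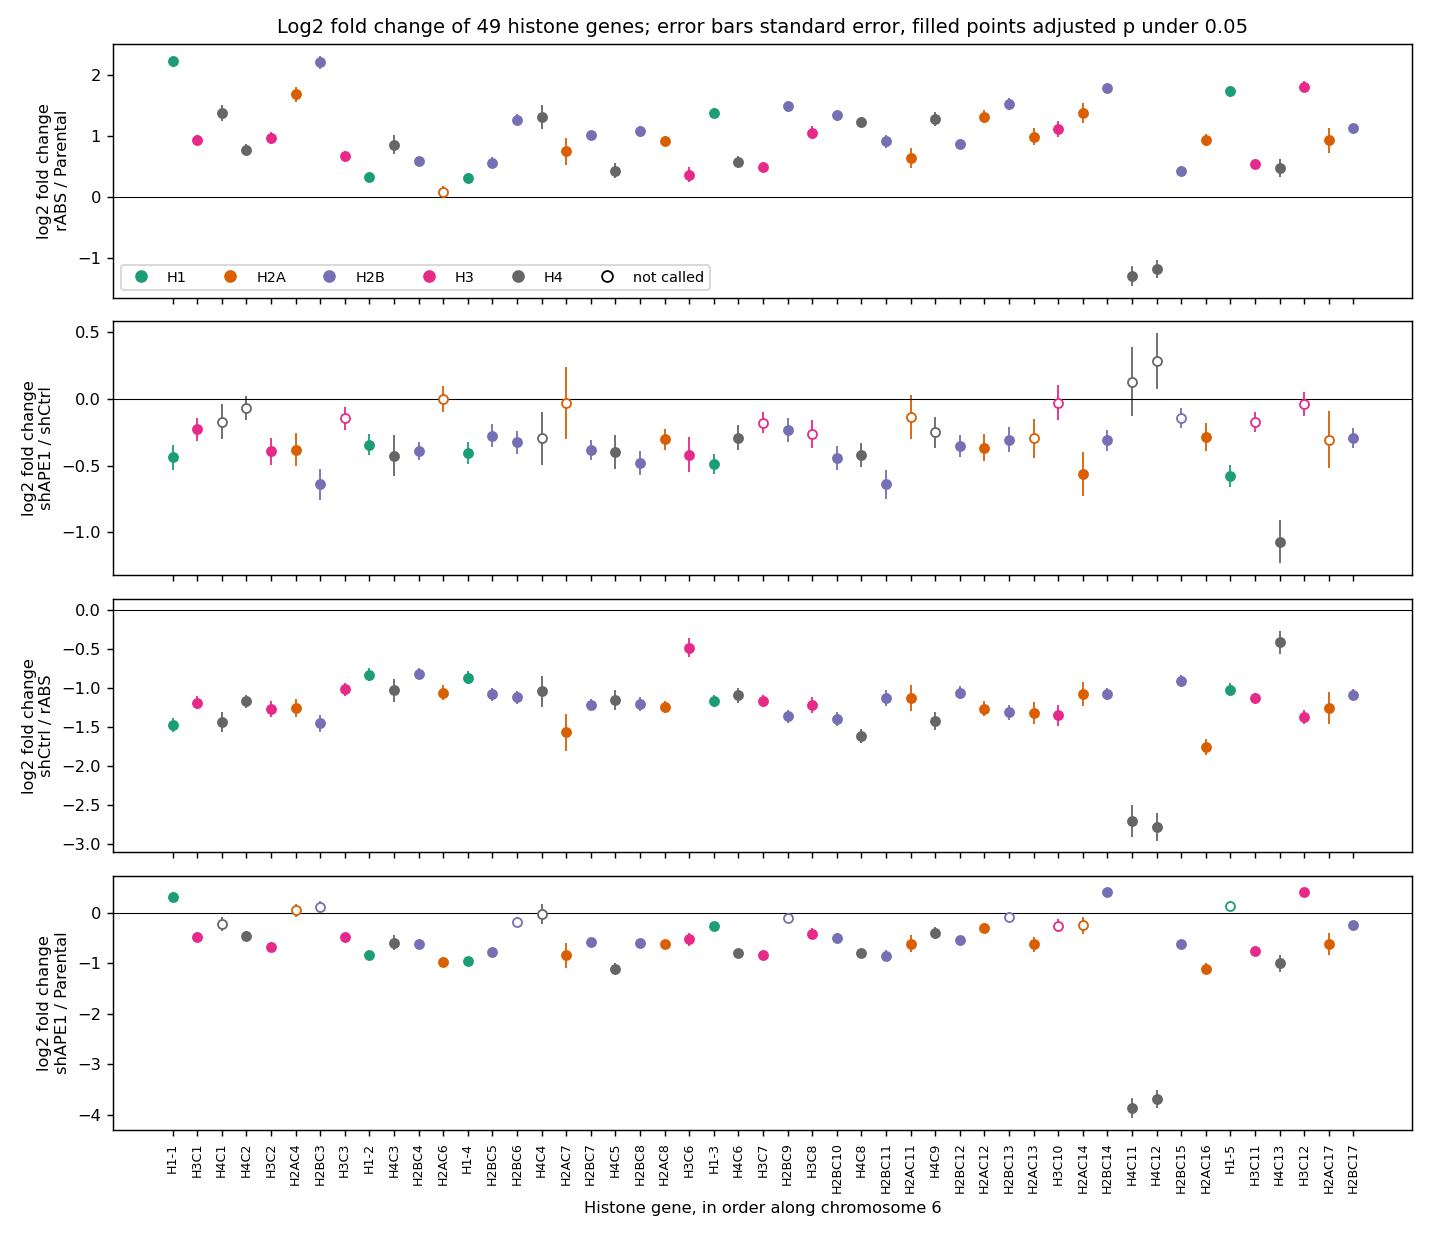
Log2 fold change (vertical axes) with standard error of each of the 49 genes in order along chromosome 6, coloured by class, in 4 comparisons from top to bottom, with filled points for adjusted p under 0.05. In rABS over Parental 46 points lie above 0 and are filled, and H4C11 and H4C12 stand at -1.29 and -1.18. In shCtrl over rABS all 49 lie below 0.

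Every histone class shared the rise, as the sums over the members of each class show. H1 genes summed to 2607, 3071 and 2707 CPM in rABS and 1473, 1273 and 1574 CPM in Parental, a ratio of means of 1.94. H2A genes summed to 2150, 2531 and 2040 CPM in rABS and 1464, 1131 and 1445 CPM in Parental, a ratio of 1.66. H2B genes summed to 4693, 5377 and 4463 CPM in rABS and 2680, 2196 and 2679 CPM in Parental, a ratio of 1.92. No rABS library overlapped a Parental one in these 3 classes. H3 genes summed to 3801, 4247 and 3789 CPM in rABS and 2304, 1882 and 2323 CPM in Parental, a ratio of 1.82. H4 genes summed to 2376, 2812 and 2349 CPM in rABS and 1540, 1178 and 1515 CPM in Parental, a ratio of 1.78. H3 and H4, which form the tetramer at the centre of the nucleosome, also separated completely between the groups. The make-up of the pool changed less: H2B genes were 29.1 to 30.0% of the summed level in rABS and 28.1 to 28.7% in Parental, and H2A genes were 13.3 to 14.03% in rABS and 14.8 to 15.5% in Parental.

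**Figure D3:**
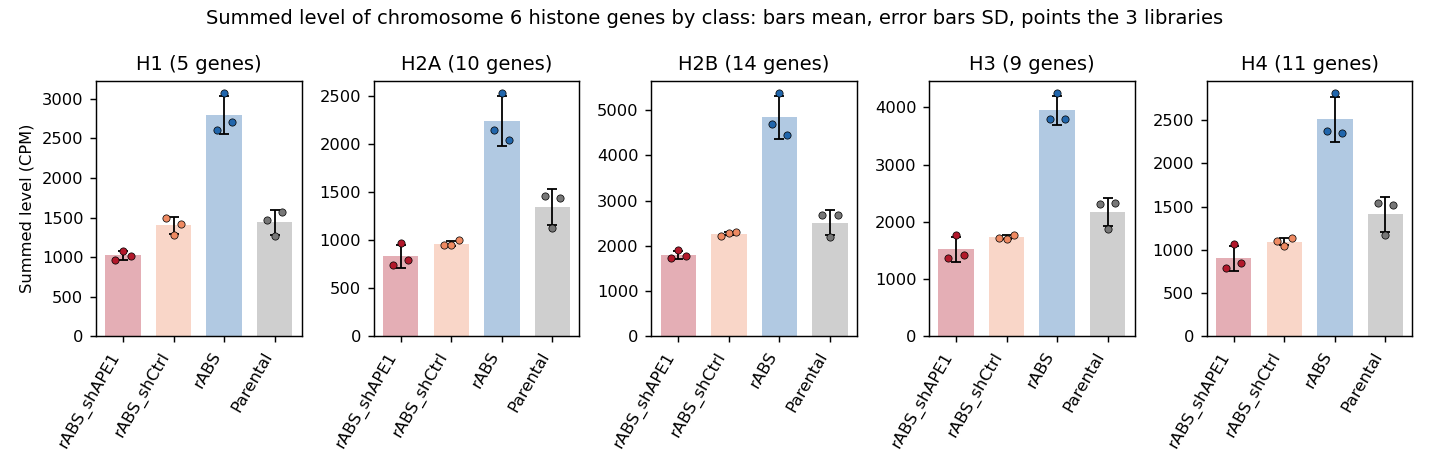
Summed level in CPM of the members of each histone class, with bars for group means, error bars for SD and points for the 3 libraries. In every class the 3 rABS points lie above all others, and in H2A, H3 and H4 a shAPE1 point reaches the level of shCtrl.

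The 5 linker histone genes, whose products bind DNA between nucleosomes, all rose in rABS, by amounts that ranged from 1.24-fold to 4.66-fold. H1-1 was at 210, 244 and 212 CPM in rABS and 46.1, 42.2 and 54.7 CPM in Parental (log2 2.22 ± 0.09, standard error, adjusted p = 1.78e-19). H1-5 was at 859, 996 and 875 CPM in rABS and 277, 242 and 305 CPM in Parental (log2 1.73 ± 0.09, adjusted p = 1.9e-17). H1-3 was at 482, 561 and 520 CPM in rABS and 206, 188 and 207 CPM in Parental (log2 1.38 ± 0.07, adjusted p = 9.14e-17). In these 3 genes every rABS library was more than 2-fold above every Parental library. H1-2 was at 673, 806 and 728 CPM in rABS and 596, 520 and 651 CPM in Parental, and H1-4 was at 383, 464 and 371 CPM in rABS and 347, 281 and 356 CPM in Parental. Both rose in the test, by 0.32 ± 0.08 and 0.31 ± 0.08 on the log2 scale (adjusted p = 0.00066 and 0.00175), with groups that barely separated. With the 3 libraries numbered 2 left out as above, H1-4 was not called (adjusted p = 0.161).

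Among the 10 H2A and 14 H2B genes, which pair as the dimers at the faces of the nucleosome, 23 of 24 rose. H2BC3 was at 68.9, 78.8 and 60.7 CPM in rABS and 16.2, 13.01 and 16.3 CPM in Parental (log2 2.20 ± 0.11, adjusted p = 2.4e-17). H2BC14 was at 286, 328 and 273 CPM in rABS and 95.2, 76.1 and 85.9 CPM in Parental (log2 1.79 ± 0.08, adjusted p = 9e-19). These were the largest rises of the H2B class. Of the 2 H2B genes with the highest mean levels, H2BC12 was at 709, 820 and 664 CPM in rABS and 433, 342 and 428 CPM in Parental (log2 0.87 ± 0.08), and H2BC4 rose by 0.58 ± 0.07 on the log2 scale. H2AC8, the H2A gene with the lowest adjusted p, was at 515, 573 and 476 CPM in rABS and 290, 244 and 294 CPM in Parental (log2 0.92 ± 0.08, adjusted p = 5.84e-12). H2AC6 was at 455, 521 and 436 CPM in rABS and 477, 385 and 470 CPM in Parental (log2 0.08 ± 0.10, adjusted p = 0.478), with overlapping groups. H2AC6 is a gene for which a long transcript past the stem-loop is annotated, and it faces H2BC4 across a shared start region.

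All 9 H3 genes rose in rABS, by 1.29-fold to 3.49-fold. H3C12 was at 303, 351 and 318 CPM in rABS and 93.1, 81.2 and 105 CPM in Parental (log2 1.80 ± 0.09, adjusted p = 1.56e-17), although exons of H3C12 and H2AC17 overlap and their reads may be shared. H3C2 was at 616, 738 and 627 CPM in rABS and 353, 282 and 380 CPM in Parental (log2 0.97 ± 0.10). H3C3, the H3 gene with the highest mean level, was at 704, 767 and 687 CPM in rABS and 484, 395 and 478 CPM in Parental (log2 0.67 ± 0.08). The smallest rise of the class, in the low-level gene H3C6, was 0.36 ± 0.13. The ranges of the 2 groups did not overlap for any H3 gene.

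The H4 genes, nearly all of which encode the same protein, divided into 9 that rose and 2 that fell. H4C8 was at 178, 190 and 160 CPM in rABS and 81.9, 67.3 and 76.2 CPM in Parental (log2 1.23 ± 0.08, adjusted p = 5e-14), H4C4 rose by 1.31 ± 0.20 and H4C6, the H4 gene with the highest mean level, by 0.57 ± 0.09. H4C11 and H4C12 went the other way. H4C12 was at 26.5, 38.7 and 31.2 CPM in rABS and 77.0, 59.0 and 82.7 CPM in Parental (log2 -1.18 ± 0.15, adjusted p = 3.59e-07). H4C11, which the naming rule does not select and which is described because of its values, was at 13.9, 22.6 and 18 CPM in rABS and 45.05, 35.9 and 52.8 CPM in Parental (log2 -1.29 ± 0.16, adjusted p = 2.37e-07). In both, all 3 rABS libraries lay below all 3 Parental libraries. The 2 genes face each other, H4C11 at 27824108 to 27824480 on the plus strand and H4C12 at 27831216 to 27831527 on the minus strand, with 6735 bases and no other member between them. Their sequences are close copies: 81.2% of the 50-base stretches of H4C11 and all of those of H4C12 occur in the other, so reads may be shared or lost between them, and the 2 values are not independent.

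The nearest members on either side did not share that fall. H2BC14, 8683 bases before H4C11, rose 3.46-fold in rABS, as given above. H2BC15, 6232 bases after H4C12, was at 344, 379 and 322 CPM in rABS and 273, 231 and 271 CPM in Parental (log2 0.43 ± 0.07, adjusted p = 6.33e-06). The fall of H4C11 and H4C12 was therefore flanked by genes that rose. In the hairpin groups the pair was lower again. H4C12 was at 3.92, 6.30 and 7.06 CPM in shAPE1 and 4.54, 5.05 and 4.38 CPM in shCtrl, and H4C11 was at 2.11, 3.66 and 3.50 CPM in shAPE1 and 2.80, 2.29 and 3.33 CPM in shCtrl. Neither was called between these groups, which overlap. Between shCtrl and rABS, H4C12 fell by 2.78 ± 0.18 and H4C11 by 2.70 ± 0.21 on the log2 scale (adjusted p = 1.03e-10 and 6.44e-10), the largest falls of any member in that comparison. Relative to Parental, shAPE1 held 7.8% of the H4C12 level and 6.9% of the H4C11 level. The lowest H4C11 value rested on 42 counts.

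**Figure D4:**
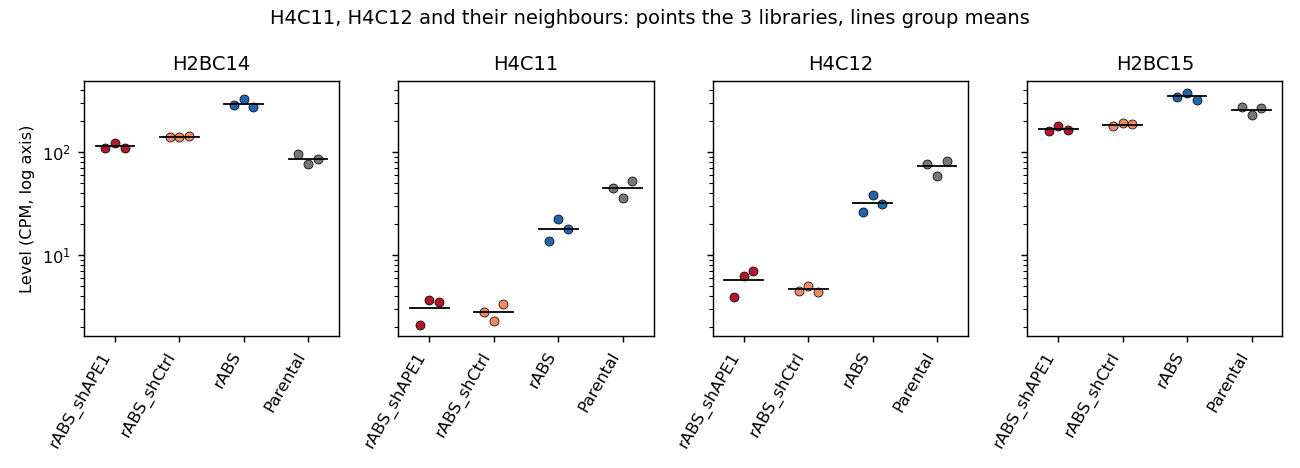
Level in CPM (log axis) of H4C11, H4C12 and the nearest member on either side, with points for libraries and lines for group means. H4C11 and H4C12 are highest in Parental, at 35.9 to 82.7 CPM, whereas H2BC14 and H2BC15 are highest in rABS.

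Depletion of APE1 in the survivors, shAPE1 against shCtrl, was accompanied by lower histone levels. Of the 49 genes 31 fell, 0 rose and 18 were not called in the edgeR test, where 18.8% of all genes were called lower and 17.8% higher. No member was higher at an unadjusted p under 0.05, by DESeq2 or by limma-voom either. Lower were 35 at an unadjusted p under 0.05, 26 by DESeq2 and 32 by limma-voom. The median log2 fold change was -0.30 (1.23-fold lower) for the 49 and -0.02 for all genes. The falls were small: 3 genes (H2BC3, H4C13 and H2BC11, the last outside the naming rule) were lower by 1.5-fold or more, against 8.44% of all genes, and H4C13 alone by 2-fold or more, against 3.01%. The H2B and H1 classes held most of them, with 13 of 14 H2B, 5 of 5 H1, 5 of 10 H2A, 3 of 9 H3 and 5 of 11 H4 genes called lower. For 32 genes the 3 libraries of each group did not overlap, all lower in shAPE1, against 24.3% of all genes.

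The linker genes fell together. H1-5 was at 274, 318 and 314 CPM in shAPE1 and 481, 392 and 477 CPM in shCtrl (log2 -0.57 ± 0.08, adjusted p = 1.81e-06). H1-3 was at 168, 171 and 160 CPM in shAPE1 and 259, 212 and 228 CPM in shCtrl (log2 -0.49 ± 0.07, adjusted p = 2.94e-06). H1-1, H1-2 and H1-4 fell by 0.44 ± 0.09, 0.34 ± 0.08 and 0.40 ± 0.08 on the log2 scale. No shAPE1 library overlapped a shCtrl library in any of the 5. H2BC3 was at 16.4, 14.3 and 18.3 CPM in shAPE1 and 23.3, 26.8 and 26.1 CPM in shCtrl (log2 -0.64 ± 0.11, adjusted p = 3.23e-05). H2AC8 was at 167, 198 and 174 CPM in shAPE1 and 216, 220 and 228 CPM in shCtrl (log2 -0.30 ± 0.08, adjusted p = 0.00253), and H2AC6 was at 195, 272 and 212 CPM in shAPE1 and 222, 221 and 236 CPM in shCtrl (log2 0.001 ± 0.10). The H2A genes thus held both separated and overlapping groups. H3C2 was at 192, 246 and 193 CPM in shAPE1 and 286, 264 and 278 CPM in shCtrl (log2 -0.39 ± 0.10, adjusted p = 0.00368), and H3C3 was at 285, 380 and 301 CPM in shAPE1 and 346, 351 and 371 CPM in shCtrl (adjusted p = 0.197). H4C13, a low-level gene with 56 to 175 counts in a library, was at 2.96, 3.49 and 3.50 CPM in shAPE1 and 6.81, 7.42 and 6.57 CPM in shCtrl (log2 -1.07 ± 0.16, adjusted p = 2.88e-06).

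In several H2A, H3 and H4 genes library 2 of shAPE1 stood above the 2 others of its group, and it is also the shAPE1 library richest in other tail-less RNAs. The H3 sum was 1369, 1771 and 1427 CPM in shAPE1 and 1725, 1706 and 1766 CPM in shCtrl, so that library 2 overlapped shCtrl. The H1 sum was 970, 1081 and 1022 CPM in shAPE1 and 1497, 1286 and 1424 CPM in shCtrl, with no overlap. Without library 2 of shAPE1, Parental and rABS, a choice made after the data were seen, 43 genes were called lower and the median was -0.38. Of the other RNAs without tails, 0 of 21 tested were called between shAPE1 and shCtrl by edgeR, DESeq2 or limma-voom, and 0 at an unadjusted p under 0.05. What tail-less RNA in the libraries contributed to the histone differences was not tested.

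The comparison of shCtrl with rABS, cells with a control hairpin against cells without one, gave the most uniform change. In the edgeR test all 49 genes fell, 43 of them by 2-fold or more, where 18.6% of all genes were called lower, 17.9% higher, and 1.53% were called lower by 2-fold or more. The median log2 fold change was -1.17 (2.25-fold lower) for the 49 and 0.02 for all genes, and no library of shCtrl overlapped rABS in any of the 49, against 24.3% of all genes that separated in this direction. H1-1 was at 89.1, 67.9 and 83.4 CPM in shCtrl and 210, 244 and 212 CPM in rABS (log2 -1.47 ± 0.09, adjusted p = 4.27e-14). H2AC16 was at 43.6, 44.6 and 43.2 CPM in shCtrl and 134, 173 and 136 CPM in rABS (log2 -1.76 ± 0.10, adjusted p = 1.68e-14), although it lies within an exon of H2BC15. H2BC7 was at 187, 190 and 195 CPM in shCtrl and 450, 469 and 406 CPM in rABS (log2 -1.21 ± 0.07, adjusted p = 2.11e-14). The fall thus ran through linker, H2A and H2B genes alike. H3C11 was at 223, 241 and 234 CPM in shCtrl and 513, 528 and 488 CPM in rABS (log2 -1.13 ± 0.07, adjusted p = 1.51e-13), and H4C8 was at 52.1, 64.7 and 55.5 CPM in shCtrl and 178, 190 and 160 CPM in rABS (log2 -1.61 ± 0.09, adjusted p = 2.24e-15). The class sums in shCtrl were 0.50 (H1), 0.43 (H2A), 0.47 (H2B), 0.44 (H3) and 0.44 (H4) of those in rABS. The share of other RNAs without tails was also lower in every shCtrl library, at 0.576 to 0.637%, against 0.654 to 0.989% in rABS, and with that share as a covariate the median of the 49 genes was -1.06. The smallest fall, in H4C13, was 0.41 ± 0.14 on the log2 scale (adjusted p = 0.0243), and it was no longer called without rABS library 1 or 2 or shCtrl library 1 or 3 (adjusted p = 0.0518 to 0.111). Transduction, selection and further culture of the hairpin cells cannot be told apart in this comparison, and rABS takes part in it as well as in the comparison with Parental.

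Set against Parental, shAPE1 cells had lower levels of most of the cluster although they descend from the exposed survivors. Of the 49 genes, 36 fell, 3 rose (H1-1, H2BC14 and H3C12) and 10 were not called, with 27.5% of all genes called lower and 26.2% higher, and the median was -0.58 against 0.001 for all genes. H1-4 was at 165, 182 and 159 CPM in shAPE1 and 347, 281 and 356 CPM in Parental (log2 -0.96 ± 0.08, adjusted p = 1.91e-11), and H1-2 fell by 0.84 ± 0.08. H1-1 was at 58.9, 60.8 and 57.8 CPM in shAPE1 and 46.1, 42.2 and 54.7 CPM in Parental (log2 0.31 ± 0.10, adjusted p = 0.00557), a call that was lost without Parental library 2 (adjusted p = 0.0546). Within the linker class, then, levels in shAPE1 lay on both sides of Parental. H2BC14 was at 109, 123 and 109 CPM in shAPE1 and 95.2, 76.1 and 85.9 CPM in Parental (log2 0.41 ± 0.08, adjusted p = 5.89e-05). H3C12 was at 105, 137 and 126 CPM in shAPE1 and 93.1, 81.2 and 105 CPM in Parental (log2 0.40 ± 0.09, adjusted p = 0.000293). Apart from H4C11 and H4C12, the largest falls were in H4C5 and H2AC16, with log2 fold changes of -1.114 and -1.105. H4C5 lies outside the naming rule and is given for its value.

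By group means, 31 genes ran in the order rABS, Parental, shCtrl, shAPE1 from high to low. A further 9 had shCtrl above Parental with shAPE1 lowest, and 6 had both hairpin groups above Parental. The mean was highest in rABS for 47 genes and lowest in shAPE1 for 40. Per base of annotated exon, mean levels over the 12 libraries were highest in H4C6 and H2BC12, at 1170 and 1155 RPKM (CPM per kilobase of exon), and lowest in H3C6 at 4.65 RPKM. Annotated lengths, which for many members lack the ends, limit this order.

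Position, 3′ end and shared starts were compared by the medians of their genes. The members lie in 3 stretches of 29, 5 and 15 genes. In rABS against Parental their median log2 fold changes were 0.93, 0.91 and 0.99, and in shCtrl against rABS they were -1.17, -1.13 and -1.25. The 17 genes with a spliced transcript or one that runs more than 200 bases past the stop codon, a form that can carry a poly(A) tail, had medians of 1.01 in rABS against Parental and -0.27 in shAPE1 against shCtrl. The other 32 genes had 0.93 and -0.30. The 8 pairs of H2A and H2B genes that face each other, with starts 219 to 331 bases apart, differed within a pair by up to 0.53 on the log2 scale in rABS against Parental. In the pair of H2AC6 and H2BC4, for example, H2BC4 rose by 0.58 ± 0.07 while H2AC6 was not called. No test of these differences was made.

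Replication-dependent histone genes elsewhere in the genome were compared as a list of 15, of which 8 could be tested. In rABS against Parental 6 of 8 rose and 0 fell (also at an unadjusted p under 0.05 and by DESeq2), with a median of 0.64. Of all genes, 29.9% were called in each direction there. H2BC18 was at 651, 720 and 610 CPM in rABS and 266, 224 and 267 CPM in Parental (log2 1.39 ± 0.07), and H2BC21, a gene known to give polyadenylated RNA, was at 734, 772 and 709 CPM in rABS and 733, 683 and 766 CPM in Parental (adjusted p = 0.801). In shAPE1 against shCtrl 4 of 8 fell, H2AC21 by 0.52 ± 0.09, and 0 rose by edgeR, DESeq2 or limma-voom (1 at an unadjusted p under 0.05). The share of all genes called lower there was 18.8%. In shCtrl against rABS all 8 fell, with a median of -1.04, where 18.6% of all genes were called lower. In shAPE1 against Parental 7 of 8 fell and 0 rose, with a median of -0.67, where 27.5% of all genes were called lower.

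The genes of S phase had the same prevailing direction as the cluster in 3 comparisons and the opposite one in shAPE1 against Parental. In rABS against Parental all 20 listed S-phase genes rose, with a median of 1.99, where 29.9% of all genes were called higher. PCNA, the sliding clamp of replication, was at 447, 456 and 459 CPM in rABS and 79.0, 82.3 and 80.3 CPM in Parental, and MCM2, a subunit of the replicative helicase, was at 338, 347 and 308 CPM in rABS and 44.9, 37.3 and 42.8 CPM in Parental. In shAPE1 against shCtrl 19 of 20 fell, with a median of -0.80, where 18.8% of all genes were called lower. In shCtrl against rABS 18 fell and 1 rose, with a median of -0.56, where 18.6% of all genes were called lower and 17.9% higher. Histone genes had the smaller median in the first 2 of these comparisons and the larger fall in the third. In shAPE1 against Parental 15 S-phase genes rose and 2 fell, with a median of 0.49, while 36 of the 49 histone genes fell. Of all genes, 26.2% were called higher and 27.5% lower there. MCM2 was at 83.3, 86.4 and 86.5 CPM in shAPE1, above each of the Parental values just given.

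**Figure D5:**
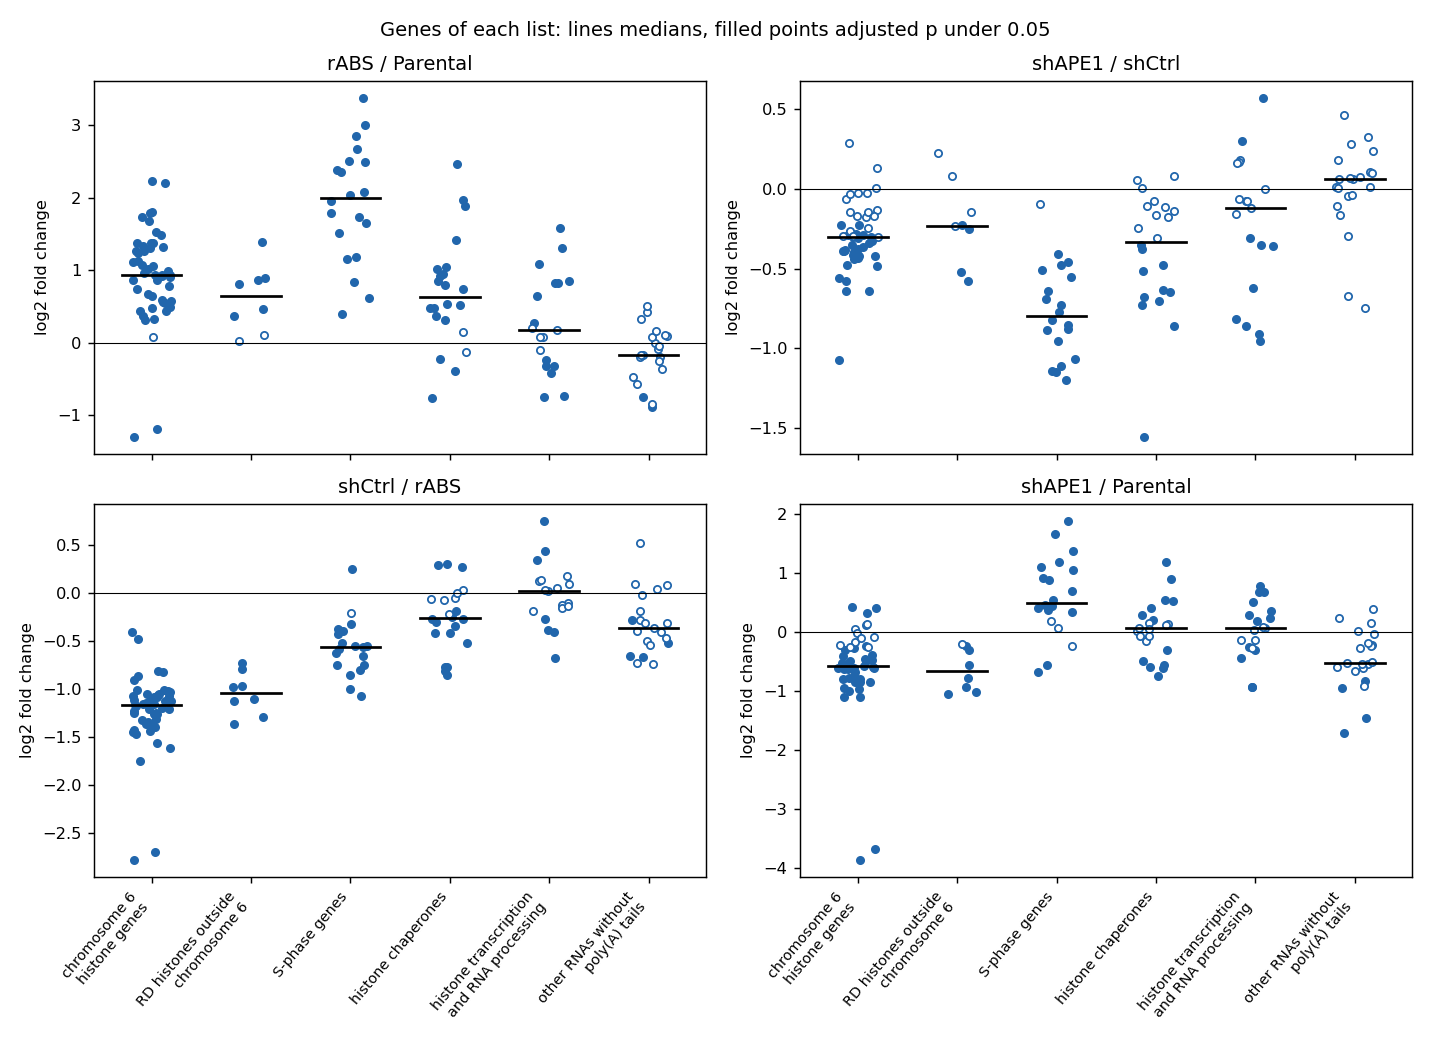
Log2 fold change of each tested gene of 6 lists in 4 comparisons, with lines for medians and filled points for adjusted p under 0.05. The S-phase median is 1.99 in rABS over Parental and 0.49 in shAPE1 over Parental, where that of the chromosome 6 histone genes is 0.94 and -0.58.

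Factors of histone transcription and RNA processing did not move as 1 group. Of 19 listed genes, 8 rose and 6 fell in rABS against Parental, with a median of 0.18, where 29.9% of all genes were called in each direction. SLBP, which binds the stem-loop, was at 84.6, 85.9 and 91.5 CPM in rABS and 37.9, 31.0 and 37.6 CPM in Parental (log2 1.30 ± 0.09), and CSTF2, a cleavage factor subunit, rose by 1.58 ± 0.11. NPAT, which is outside the naming rule and is given as the coactivator of the cluster, rose by 0.82 ± 0.09. The largest of the 6 falls, also outside that rule, were in TUT7, by 0.75 ± 0.09, and POU2F1, by 0.74 ± 0.08. In shAPE1 against shCtrl 8 of the 19 fell and 2 rose, where 18.8% of all genes were called lower and 17.8% higher. SLBP was at 37.9, 39.8 and 47.8 CPM in shAPE1 and 83.5, 75.1 and 76.5 CPM in shCtrl (log2 -0.91 ± 0.09, adjusted p = 9.31e-10). CPSF3, the nuclease that cuts histone RNA, fell by 0.95 ± 0.10, LSM11, a protein of the U7 particle, by 0.86 ± 0.13, and CASP8AP2, a factor of histone locus bodies, by 0.81 ± 0.13. The 2 that rose, outside the naming rule, were ERI1, by 0.57 ± 0.13, and UPF1, by 0.30 ± 0.07. In shCtrl against rABS, where every member of the cluster fell, 3 of the 19 rose and 4 fell. These counts are near the shares of all genes called in that comparison, 17.9% higher and 18.6% lower. CSTF2 fell by 0.68 ± 0.10 and ZNF473, a protein of histone RNA processing, by 0.41 ± 0.10 on the log2 scale, and SNRPD3 and SNRPB, which encode Sm proteins, fell by 0.28 and 0.39. SLBP was at 83.5, 75.1 and 76.5 CPM in shCtrl and 84.6, 85.9 and 91.5 CPM in rABS (adjusted p = 0.158). The 3 that rose were POU2F1, by 0.75 ± 0.08, TUT7, by 0.43 ± 0.09, and LSM11, by 0.34 ± 0.12.

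Histone chaperones, which carry new histones to DNA, followed the direction of the cluster in part. Of 22, 17 rose and 3 fell in rABS against Parental, where 29.9% of all genes were called in each direction. In shAPE1 against shCtrl 11 fell, against 18.8% of all genes, and 0 rose by edgeR, DESeq2 or at an unadjusted p under 0.05. In shCtrl against rABS 13 fell and 3 rose, where 18.6% of all genes were called lower and 17.9% higher. In shAPE1 against Parental 7 rose and 6 fell, near the 26.2% and 27.5% of all genes, with a median of 0.06. TONSL, a reader of new H4 at forks, was at 123, 145 and 126 CPM in rABS and 27.7, 20.8 and 23.6 CPM in Parental, and ASF1B, which carries H3 with H4, rose by 1.97 ± 0.09. MMS22L, the partner of TONSL, was at 25.3, 22.3 and 26.4 CPM in shAPE1 and 77.2, 69.0 and 70.9 CPM in shCtrl (log2 -1.55 ± 0.10), and HAT1, which acetylates new H4, fell by 0.86 ± 0.09. A list of histone variant genes, kept apart from the replication-dependent series, gave 3 rises and 5 falls among 10 tested in rABS against Parental. Of all genes, 29.9% were called in each direction there. H2AX, the DNA damage variant, rose by 1.39 ± 0.08 on the log2 scale. H2AZ1 rose by 1.22 ± 0.07 in rABS against Parental and was at 60.7, 67.3 and 62.8 CPM in shAPE1 and 194, 195 and 183 CPM in shCtrl (log2 -1.58 ± 0.07, adjusted p = 1.52e-17). Among the other RNAs without tails, 2 of 21 fell in rABS against Parental, VTRNA1-3, a vault RNA, by 0.88 ± 0.19 and RNU5D-1 by 0.75 ± 0.31. In shCtrl against rABS 4 of the 21 fell, near the 18.6% of all genes called lower, with a median of -0.37. In both comparisons 0 of the 21 rose by edgeR, DESeq2 or at an unadjusted p under 0.05.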

How the data were processed

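Raw counts per Ensembl gene, whole numbers without normalization, were deposited. Per the submitters' processing notes, Trimmomatic 0.36, STAR 2.5.2b with GRCh38 and featureCounts of Subread 1.5.2 were used. For the annotation release, strandedness and multi-mapping reads, the sources used here give no setting, so near-identical or overlapping genes are uncertain. GENCODE 29 placed 56898 of the 57500 IDs.

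Low genes were removed with filterByExpr, and the quasi-likelihood model of edgeR 4.0.16 (R 4.3.3, limma 3.58.1) was fitted with TMM scaling and a term per group to the 12 libraries. Calls were made at a Benjamini-Hochberg adjusted p under 0.05 over 15805 genes. Values after ± are standard errors on the log2 scale. Named members were the 2 of each class with the highest mean level, the lowest adjusted p per class and comparison, every H1 gene, and up to 4 called genes per list. Not all genes so selected are reported here. The members, lists and rules were chosen with earlier results of these data known. Alternatives were other scalings, filters and tools (DESeq2 1.42.0, limma-voom), a replicate block, a covariate, single libraries left out, and 2 choices added after the data were seen. Simulated counts were used to test the fit.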

Additional observations from a re-analysis of the deposited data

How the results depend on the processing

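The direction of the cluster held in the alternatives tried: counts of genes called stayed within 1.5 times of the values given in all but 3 cases. Requiring a 1.5-fold change left 3 of 49 genes lower in shAPE1 against shCtrl in place of 31, and 0 higher in shAPE1 against Parental in place of 3. Leaving out single libraries gave 0 to 1 genes higher and 21 to 35 lower in shAPE1 against shCtrl. The lowest of these came without shAPE1 library 1, when H4C12 was called higher. It gave 45 to 46 higher in rABS against Parental, 48 to 49 lower in shCtrl against rABS, and 2 to 4 higher and 31 to 41 lower in shAPE1 against Parental. With unscaled totals the shCtrl sums were 1017 CPM for H2A, 2395 for H2B, 1824 for H3 and 1154 for H4, each more than 1 SD above the scaled sums, by the scaling factor itself. A covariate for the share of other RNAs without tails moved the medians to 0.88, -0.34, -1.06 and -0.53 in rABS against Parental, shAPE1 against shCtrl, shCtrl against rABS and shAPE1 against Parental. Leaving out library 2 of shAPE1, rABS and Parental together, added after the data were seen, turned H2AC6 to -0.15 in shAPE1 against shCtrl (adjusted p = 0.0362), and the cause was not tested. Libraries with the same replicate number did not deviate together (correlations of -0.167 to 0.067), and with a replicate block 46 genes rose in rABS against Parental, 31 fell in shAPE1 against shCtrl and 49 fell in shCtrl against rABS. Values near the 42 counts of H4C11 and the 25 counts of H2AC7 are limited by depth.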

Other observations

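Of 43 other genes tested in the 24.4 to 28.4 Mb region, 6 rose and 15 fell in rABS against Parental, where 29.9% of all genes were called in each direction. In shCtrl against rABS 4 rose and 8 fell, where 17.9% and 18.6% of all genes were called higher and lower. Their medians were -0.14 and -0.06. The histone genes that did not reach the count limit were H2AC1, H2BC1 and H1-6, with at most 2, 2 and 8 counts in a library, and H3C4, H4C7 and H2AC15, with 0 in every library. Among the low-level members, H2AC7 had 25 to 128 counts and H4C13 had 56 to 175, above the limit of 10 in all 12 libraries.

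Annotation touches some of these values. All of the 50-base stretches of H3C4 and 98.0% of those of H2AC7 also belong to an overlapping protein-coding gene, ENSG00000282988, and H2AC15 lies within an exon of H2BC15. ENSG00000282988, singled out after its values were seen, was at 139, 175 and 142 CPM in shAPE1, 157, 148 and 158 CPM in shCtrl, 417, 477 and 406 CPM in rABS, and 234, 183 and 222 CPM in Parental. It rose in rABS against Parental by 1.03 ± 0.09 and fell in shCtrl against rABS by 1.49 ± 0.09 on the log2 scale. It counts among the 43 other genes above, within the 6 that rose and the 8 that fell in these comparisons. Which of the overlapping genes its reads came from was not tested. H2BC12 shares 61.4% of its 50-base stretches with H2BC12L, outside the region.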
